A study of Mus musculus with 6 samples.

Results

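The genes described here encode the proteins of the cytosolic ribosome. They were taken by symbol, as Rpl or Rps followed by a number and at most 1 of the letters a, l, x or y, together with Rplp0, Rplp1, Rplp2 and Rpsa. This rule found 77 of the 10989 genes in the table, 46 of the large subunit and 31 of the small subunit. Rpl10a encodes a large subunit protein that is also the EGFP-tagged part of the reporter these mice carry, so it was kept apart from the other 76 genes. The data are directional total RNA sequencing of 6 mouse brain libraries, 3 called Positive and 3 called Input. Positive libraries came from cells sorted as EGFP positive, CD31 positive and CD11b negative, and Input libraries from the brain cell suspension. Mice of both fractions carried Tie2-cre and NuTRAP, and the titles of all 6 libraries carry WT. No age, treatment or time was used here, and each fraction has 1 library of each replicate number, 1222, 1223 and 1227.

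Each cytosolic ribosome is built from a large and a small subunit, and each subunit joins ribosomal RNA with a fixed set of proteins, most present in a single copy. Their mRNAs are abundant in most cells, and many begin with a run of pyrimidines (the 5′ terminal oligopyrimidine, or TOP, start) that links their translation to mTOR signalling through LARP1. NuTRAP is a Cre-dependent reporter that marks ribosomes with EGFP fused to L10a and marks the nuclear envelope with mCherry. The Tie2 (Tek) promoter drives Cre in endothelial cells and is also active in some blood and myeloid cells. Input still holds the endothelial cells that Positive was sorted from. In bulk libraries such as these, fewer cells of a type and less RNA per cell cannot be told apart.

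Library totals ran from 4772866 to 23525401 estimated counts in Positive and from 4814966 to 52283556 in Input, and the lowest value of any of the 77 genes was 167.7 counts, so none was near the limit of detection. Positive carried the defining genes of its labelled cell type: all 8 endothelial markers measured were higher in Positive, where their summed level was 20884 to 23133 CPM (counts scaled by the TMM-adjusted library size), against 2948 to 4097 CPM in Input. The 5 oligodendrocyte markers summed to 555 to 1205 CPM in Positive and 16458 to 24054 CPM in Input, and the 6 microglial markers to 1079 to 1897 CPM in Positive and 4923 to 9361 CPM in Input. The 5 pericyte markers were higher in Positive, at 1116 to 1711 CPM against 589 to 724 CPM in Input. The 4 perivascular macrophage markers were also higher, with 1855 CPM in Positive 1222, 663 CPM in Positive 1223 and 261 CPM in Positive 1227, against 211 to 279 CPM in Input. None of the markers measured was at 0 in any library. The part of this change of cell types in the results below was not tested.

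The start sites of 6 of the genes are shown because the TOP start is the sequence feature for which ribosomal protein mRNAs are best known, and because these genes span the range of differences between the fractions. Each line gives 15 bases on either side of the start annotated by RefSeq on GRCm38.p6, on the plus strand, 5′ to 3′. Capitals mark a run of a C followed by at least 5 pyrimidines that begins within 10 bases of the annotated start.
Rpl10a: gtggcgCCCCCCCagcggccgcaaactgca
Rpl38: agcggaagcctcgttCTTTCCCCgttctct
Rpl27a: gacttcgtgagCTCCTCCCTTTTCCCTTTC
Rpl4: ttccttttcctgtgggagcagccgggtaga
Rpl10: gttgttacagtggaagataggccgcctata
Rpsa: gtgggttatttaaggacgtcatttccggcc
These windows lie at chr17:28328456-28328485 (Rpl10a), chr11:114668565-114668594 (Rpl38), chr7:109519180-109519209 (Rpl27a), chr9:64173372-64173401 (Rpl4), chrX:74270801-74270830 (Rpl10) and chr9:120127751-120127780 (Rpsa). Rpl38 and Rpl27a have long mixed runs of C and T at the start, Rpl10a has a run of C alone just before it, and the Rpl4, Rpl10 and Rpsa windows hold no such run within that distance. The Rpl4 window opens with a run of C and T that begins farther before its start.

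RefSeq promoters of 300 bases (250 before the start and 50 after it, GRCm38.p6) were found for 57 of the 77 genes, 68 promoters in all. A run as defined above, read on the sense strand, was in 29 of the 68, which is 42.6%, against 17.8% of all 32851 promoters in the table. The letters CCGGAAG, the core bound by ETS factors such as GABP, were on either strand in 36.8% of the 68 and in 8.86% of all promoters. The letters AAGATGGC, the core bound by YY1, were on either strand in 10.3% of the 68 and in 2.75% of all. On the other strand CCGGAAG reads CTTCCGG, which can overlap a pyrimidine run. Of the 57 genes, 29 had a run, Rpl10a among them, and 28 had none. The median log2 fold change of Positive over Input was 0.37 for the genes with a run, with Rpl10a left out. It was 0.42 for the genes without a run. A run counted here can lie wholly before the annotated start, as in Rpl10a. The split therefore does not show which mRNAs carry a TOP start.

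Rpl10a had the highest fold change of the 77 genes. Its level was 791 CPM in Positive 1222, 852 in 1223 and 776 in 1227, against 221, 288 and 238 CPM in the Input libraries of the same numbers. Every Positive library was above every Input library, and the 3 Positive values lay close together (806 ± 40.2 CPM in Positive and 249 ± 35 CPM in Input, SD, n = 3 each). The fitted log2 fold change was 1.70 ± 0.14 (SE), a 3.24-fold difference, with a Benjamini-Hochberg adjusted p of 2.07e-05 by edgeR's quasi-likelihood test. Within the replicate numbers the log2 difference was 1.84 (1222), 1.56 (1223) and 1.70 (1227). Among all 10989 genes, 693 (6.31%) had a higher log2 fold change. The gene lies at chr17:28328471-28331033 (mm10, plus strand). Whether reads of the reporter's own transcript were counted to this gene is not given in the sources used here, and the table cannot separate reporter from endogenous Rpl10a.

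Within the ribosomal protein mRNAs the place of Rpl10a also differed. It took 4.17%, 3.07% and 3.00% of the counts of the 77 genes in Positive 1222, 1223 and 1227, against 1.52%, 1.39% and 1.27% in Input. The fractions did not overlap, and Positive 1222 had the highest share. The ratio of Rpl10a to the sum of the other 76 genes was 2.48-fold higher in Positive (log2 1.31, within-number values 1.49, 1.17 and 1.27). An exact two-sided permutation test over the libraries gave p = 0.1, the smallest that 3 against 3 allows, or 0.2 after Benjamini-Hochberg adjustment over 6 ratios. Per kilobase of annotated transcript, the mean level of Rpl10a was 1106 CPM in Positive and 341 CPM in Input. The median of the other 76 genes was 394 CPM per kilobase in Positive and 282 in Input, and the highest of them, Rps14, a small subunit protein, reached 841 in Positive.

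**Figure D1:**
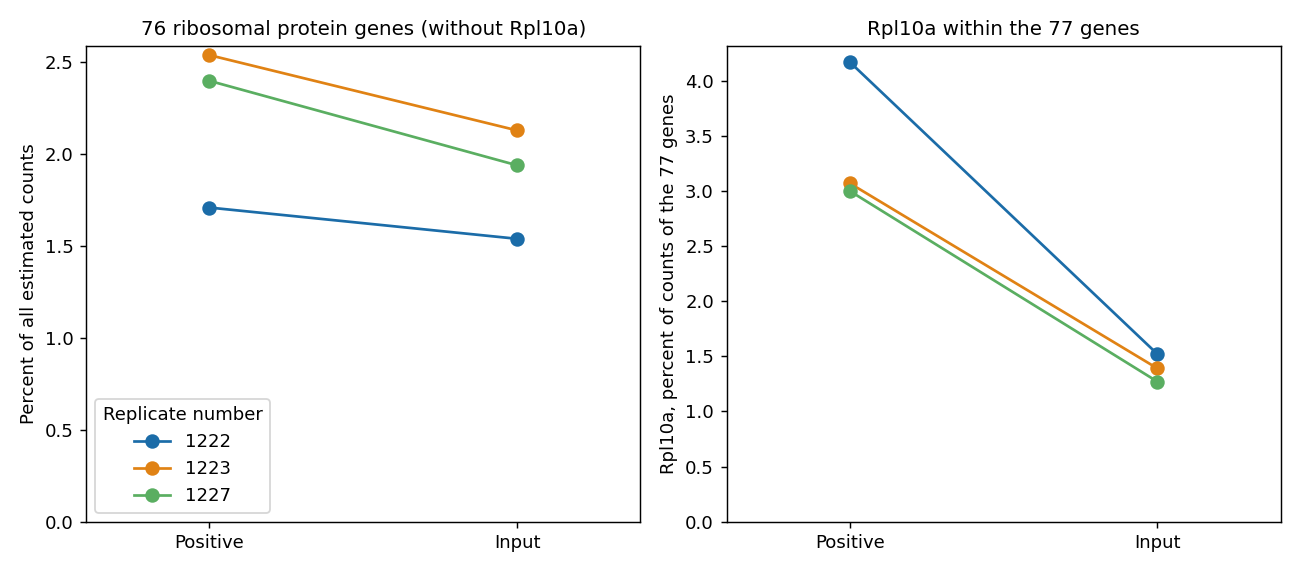
The left panel plots the 76 ribosomal protein genes without Rpl10a as a percent of all estimated counts, and the right panel plots Rpl10a as a percent of the counts of the 77 genes, with Positive on the left, Input on the right and a line for each replicate number. Rpl10a took at least 3.00% in Positive and at most 1.52% in Input, while the percentages on the left overlap between the fractions.

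The other 76 genes shared a small difference in the same direction. Their median log2 fold change of Positive over Input was 0.39, with an interquartile range of 0.29 to 0.53, beside 0.03 over all genes, and 75 of the 76 fitted values were positive. On scaling to library size alone this median was 0.23 and that of all genes was -0.13. A change of scaling moves all genes by nearly the same amount, so the gap of 0.36 between the 2 medians could hardly change. With fraction as the only term, 18 of the 76 genes (23.7%) were higher in Positive and 0 were lower at an adjusted p under 0.05 (edgeR quasi-likelihood test, Benjamini-Hochberg adjusted over all genes). The background was 26.1% of all genes called higher and 29.4% called lower, so the share called higher was near the background in this fit. On scaling to library size alone, 4 of the 76 were called higher, beside 19.7% of all genes. At an unadjusted p under 0.05, 25 were higher and 0 were lower, beside 3214 and 3450 of all 10989 genes. DESeq2 called 20 higher, beside 27.1% of all genes, and 0 lower. In 16 of the 76 genes every Positive library was above every Input library, beside 31.8% of all genes, and in 0 every Positive library was below, beside 32.6% of all genes.

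The count of calls depended on whether the replicate number entered the fit. With the number as a block, 60 of the 76 genes (78.9%) were higher and 0 lower by edgeR's test, beside 30.0% of all genes called higher and 31.7% lower, and the 60 included all 18 called without it. The block with scaling to library size alone gave 35, beside 22.9% of all genes. Under the block, 30 were called without both 1222 libraries, 33 without both 1227 libraries and 63 without both 1223 libraries, beside 22.3%, 24.2% and 32.4% of all genes. Positive exceeded Input in all 3 numbers for 71 of the 76, beside 40.8% of all genes, and fell below it in all 3 numbers for 0 of the 76, beside 38.7% of all genes. The median within-number log2 difference was 0.33 in 1222, 0.41 in 1223 and 0.46 in 1227. Standard errors of the 76 log2 fold changes had a median of 0.20 without the block and 0.09 with it. Leaving out libraries moved the count without the block between 1 and 40. It was 4 without Positive 1223, without Positive 1227 or without Input 1222, beside 23.1%, 22.2% and 24.5% of all genes. It was 40 without Positive 1222 (beside 22.8%), 9 without Input 1227 (beside 20.5%) and 5 without both 1223 libraries (beside 23.4%). Without both 1227 libraries it was 1, beside 15.8% of all genes. The median stayed between 0.26 and 0.56 in all of these.

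The 76 genes varied together across replicate numbers, in both fractions. In Positive, 0 of the 76 were above their fraction mean in 1222, 76 in 1223 and 75 in 1227. In Input the counts were 0 in 1222, 76 in 1223 and 66 in 1227. Over all genes, 45.8% to 53.9% were above their fraction mean in any library. Median deviations of the 76 genes on the log2 scale were -0.35, 0.23 and 0.13 in Positive 1222, 1223 and 1227, and -0.30, 0.22 and 0.09 in Input. The whole family was thus low in both 1222 libraries and high in both 1223 libraries. The 1223 libraries were also the shallowest (4772866 estimated counts in Positive and 4814966 in Input), and Positive 1222 had the highest macrophage marker sum. The part of depth and of these cells in the shared deviation was not tested.

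**Figure D2:**
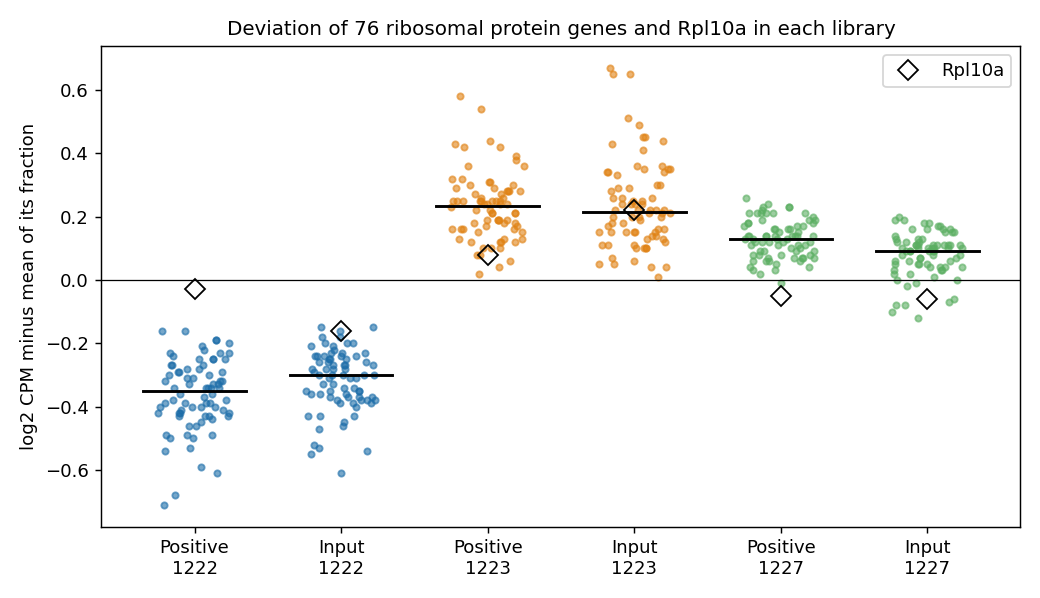
Each point is a gene's log2 CPM minus the mean of its fraction in 1 library, for the 76 ribosomal protein genes, with Rpl10a as an open diamond, with the Positive library left of the Input library within each replicate number. The whole set lies below 0 in both 1222 libraries and above 0 in both 1223 libraries, while Rpl10a in Positive stays between -0.05 and 0.08.

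Across libraries of a fraction, the median SD of the 76 genes was 0.31 in Positive and 0.27 in Input on the log2 scale, against 0.21 in either fraction over all genes. The SD of their within-number differences was 0.10, against 0.24 over all genes. So these genes varied more than the typical gene between libraries and less within a replicate number. Members that differed most between 1223 and 1222 in Positive also did so in Input (Pearson r = 0.74, Spearman rho = 0.69, across 76 genes that share the same libraries and are not independent). The log2 fold change between fractions followed neither transcript length (r = -0.13) nor level (r = -0.10) closely. Rpl10a deviated from its fraction mean by -0.03, 0.08 and -0.05 in Positive 1222, 1223 and 1227, a narrower span than the family, and by -0.16, 0.22 and -0.06 in Input.

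As a share of all counts, the 76 genes took 1.71%, 2.54% and 2.40% in Positive 1222, 1223 and 1227, against 1.54%, 2.13% and 1.94% in Input. Positive was above Input within each number, and the fractions overlapped. The 2 subunits kept nearly the same balance: counts of the large subunit genes (without Rpl10a) over those of the small subunit genes were 1.66, 1.6 and 1.61 in Positive, against 1.68, 1.58 and 1.63 in Input. Of the 45 large subunit genes 12 were called higher without the block and 36 with it, with a median log2 fold change of 0.38. Of the 31 small subunit genes 6 (19.4%) were called higher without the block and 24 (77.4%) with it, with a median of 0.39. Over all genes 26.1% were called higher without the block and 30.0% with it.

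**Figure D3:**
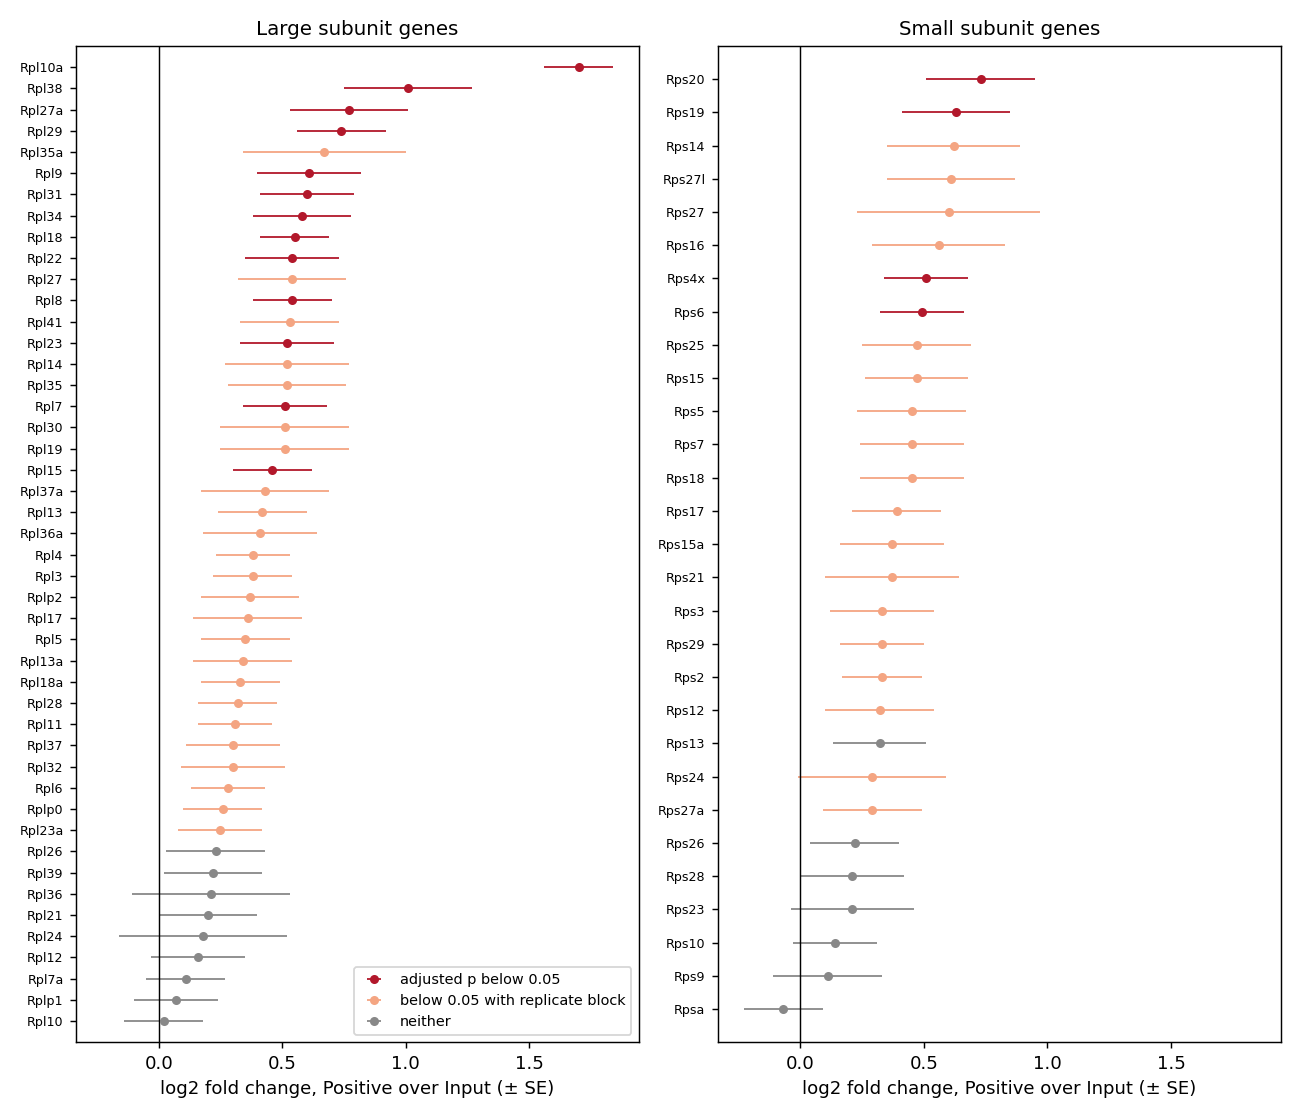
Points are fitted log2 fold changes of Positive over Input with their SE for the ribosomal protein genes reported by name, large subunit on the left and small subunit on the right, with colours for the calls. Rpl10a stands at 1.70, the next gene, Rpl38, at 1.01, and Rpsa alone lies below 0, at -0.07.

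Among the large subunit genes, Rpl38 had the highest fold change after Rpl10a. RPL38 is known in mouse embryos for its part in translating a group of Hox mRNAs. Its level was 95.4, 179 and 142 CPM in Positive (1222, 1223, 1227), against 50.2, 85.5 and 72.0 CPM in Input. All Positive libraries were above all Input libraries, and the log2 fold change was 1.01 ± 0.26 (SE; edgeR adjusted p = 0.0114, and 0.000291 with the block). Within the numbers it was 0.92, 1.06 and 0.97. The table places Rpl38 at chr11:114668543-114672331 (plus strand); the window printed above is centred on the start that RefSeq annotates at 114668580.

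Rpl29, a small basic protein on the surface of the large subunit, had 261, 364 and 342 CPM in Positive, against 160, 229.9 and 191 CPM in Input. The fractions did not overlap, and the log2 fold change was 0.74 ± 0.18 (edgeR adjusted p = 0.00816). Rpl27a had 244, 424 and 345 CPM in Positive, against 148, 247 and 200 CPM in Input. Here Positive 1222 was below Input 1223, although Positive was higher within each number, by 0.72, 0.78 and 0.78 on the log2 scale. Its log2 fold change was 0.77 ± 0.24 (edgeR adjusted p = 0.0256, and 0.000499 with the block). Rpl35a, mutated in some human patients with Diamond-Blackfan anaemia, had a log2 fold change of 0.67 ± 0.33 that passed with the block and not without it (edgeR adjusted p = 0.00172 and 0.119). Without Positive 1222 it passed without the block as well (edgeR adjusted p = 0.021). Without both 1227 libraries, Rpl38 and Rpl29 no longer passed (edgeR adjusted p = 0.066 and 0.0839 without the block, over a range of 2.11e-05 to 0.066 for Rpl38 and 0.000738 to 0.0839 for Rpl29 across 20 alternatives).

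The most abundant of the large subunit genes differed less. Rpl4 had 679, 906 and 815 CPM in Positive (1222, 1223, 1227), against 550.4, 658 and 634 CPM in Input. Its fractions did not overlap, but its log2 fold change of 0.38 ± 0.15 missed the threshold without the block (edgeR adjusted p = 0.0611) and passed with it (0.0122). Rpl13a, which in human myeloid cells also acts off the ribosome as a translational silencer, had 523, 761 and 802 CPM in Positive, against 441, 634 and 576 CPM in Input, and missed the threshold without the block and passed with it (edgeR adjusted p = 0.193 and 0.0256). Rpl3, a core protein near the peptidyl transferase centre, behaved like Rpl4, with 622 ± 91.6 CPM in Positive and 478 ± 60.5 CPM in Input (SD, n = 3 each) and an edgeR adjusted p of 0.0754 without and 0.0101 with the block. The blocked calls of Rpl4, Rpl13a and Rpl3 were lost on scaling to library size alone (edgeR adjusted p = 0.0914, 0.19 and 0.0754), without both 1222 libraries (0.126, 0.175 and 0.126) and without both 1227 libraries (0.0577, 0.212 and 0.0512). Without the block, Rpl4 and Rpl3 passed when Positive 1222 was left out (0.0463 and 0.0476).

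At the other end of the large subunit stood Rpl10, Rplp1, Rpl7a and Rpl12. Rpl10, which joins the large subunit late in its assembly, had 219, 290 and 259 CPM in Positive, against 212, 268 and 274 CPM in Input. The fractions overlapped, with a log2 fold change of 0.02 ± 0.16 (edgeR adjusted p = 0.908, and 0.828 with the block). Rpl7a and Rpl12 had log2 fold changes of 0.11 ± 0.16 and 0.16 ± 0.19 and passed in neither fit. Rpl10, Rplp1 and Rpl7a turned to negative values on scaling to library size alone, as did Rps9 and Rps10 of the small subunit.

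The stalk of the large subunit, built from Rplp0, Rplp1 and Rplp2, recruits the elongation factors. Rplp0 had 487, 634 and 634 CPM in Positive (1222, 1223, 1227), against 418, 536 and 507 CPM in Input. Rplp1 had 275, 403 and 384 CPM in Positive, against 297, 338 and 376 CPM in Input, so that Positive was below Input in 1222 and above it in the other numbers. Rplp2 had 160.1, 264 and 237 CPM in Positive, against 144, 196 and 170.1 CPM in Input. The fractions overlapped for all 3 stalk genes, and none passed without the block (log2 fold changes 0.26, 0.07 and 0.37). With it Rplp0 and Rplp2 passed (edgeR adjusted p = 0.0386 and 0.0241), and Rplp1 did not (0.658). The blocked calls of Rplp0 and Rplp2 were lost on scaling to library size alone (edgeR adjusted p = 0.353 and 0.169), without both 1222 libraries (0.267 and 0.0534) and without both 1227 libraries (0.255 and 0.156). That of Rplp0 was also lost with RLE size factors (0.0555), and Rplp2 passed without the block when Positive 1222 was left out (0.0287).

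Among the small subunit genes, Rps20 had 142, 239 and 223 CPM in Positive (1222, 1223, 1227), against 96.6, 131 and 136 CPM in Input, without overlap (log2 fold change 0.73 ± 0.22, edgeR adjusted p = 0.0214). The calls of Rps20, Rps19, Rps4x, Rpl27a, Rpl22 and Rpl7 were each lost without Positive 1223, without Positive 1227 and without Input 1222. Without the block they were also lost on scaling to library size alone (edgeR adjusted p from 0.0513 for Rps20 to 0.106 for Rps4x). Leaving out both 1227 libraries lost them as well (0.0909 for Rps20 to 0.19 for Rps19). All 6 passed with the block and all libraries. Their highest adjusted p over the 20 alternatives lay between 0.106 (Rps20) and 0.19 (Rps19).

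Rps19, the gene most often mutated in human Diamond-Blackfan anaemia, also rose, by 0.63 ± 0.22 on the log2 scale (edgeR adjusted p = 0.0374). Its fractions overlapped, with 156 CPM in Positive 1222 and 164 CPM in Input 1223. Rps6, the small subunit protein that S6 kinases phosphorylate, had 460.1 ± 78.7 CPM in Positive and 328 ± 48.9 CPM in Input (SD, n = 3 each). It rose by 0.49 ± 0.17 on the log2 scale (edgeR adjusted p = 0.0416). The fractions of Rps6 also overlapped, with 369 CPM in Positive 1222 and 371 CPM in Input 1227. Rps6 passed with the block too (edgeR adjusted p = 0.00436). Whether its call held in the other alternatives was not read for this gene alone. Rps4x, encoded on the X chromosome, had 553 ± 73.4 CPM in Positive and 389 ± 69.8 CPM in Input (log2 fold change 0.51 ± 0.17, edgeR adjusted p = 0.0353). Of the small subunit genes at the highest levels, Rps3 and Rps2, both at the mRNA entry channel, missed the threshold without the block (edgeR adjusted p = 0.215 and 0.106) and passed with it (0.0162 and 0.0184). These blocked calls were lost on scaling to library size alone (0.137 and 0.119), without both 1222 libraries (0.194 and 0.241) and without both 1227 libraries (0.0948 and 0.0906), and Rps2 passed without the block when Input 1223 was left out (0.0455).

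Rpsa, the protein also known as the laminin receptor precursor, had the lowest fitted value of all 77 genes. Its level was 383, 447 and 463 CPM in Positive, against 372, 499 and 489 CPM in Input. The fractions overlapped, and the log2 fold change of -0.07 ± 0.16 passed in neither fit (edgeR adjusted p = 0.714, and 0.557 with the block). Rps9, Rps10 and Rps28 likewise passed in neither, with log2 fold changes of 0.11, 0.14 and 0.21. In all, 16 of the 76 genes were not called with the block. The 5 that were not higher in every replicate number, namely Rpsa, Rplp1, Rpl10, Rpl24 and Rpl36, are among them.

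**Figure D4:**
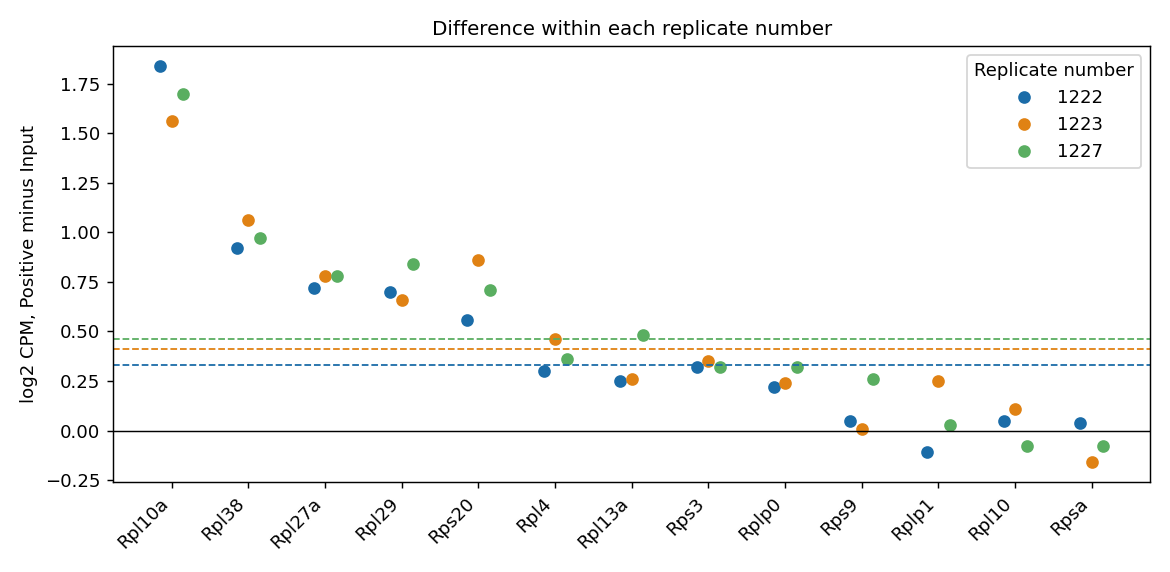
Each point is the log2 CPM of Positive minus Input within 1 replicate number, for Rpl10a and the ribosomal protein genes named in the text. Rpl10a lies at 1.56 to 1.84 and Rpl38 at 0.92 to 1.06, while the points of Rpl10 (-0.08 to 0.11) and Rpsa (-0.16 to 0.04) fall on both sides of 0.

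Set against the family's own median within each number, 25 of the 76 genes were above it in all 3 numbers, 26 were below it in all 3, and 25 changed sides. Rpl38 exceeded the median by 0.59, 0.65 and 0.51 on the log2 scale in 1222, 1223 and 1227. Rpsa stood below it by -0.29, -0.57 and -0.54, and Rplp1 by -0.44, -0.16 and -0.43. These 3 genes thus stayed on their side of the median in every number.

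Paralogs give a comparison within the library that no scaling can move. Rps27l and Rps27 encode nearly the same small subunit protein. Their ratio was 0.322, 0.238 and 0.302 in Positive 1222, 1223 and 1227, against 0.343, 0.233 and 0.289 in Input, a log2 difference of 0.00 (exact permutation p = 1.0). Rpl22l1 over Rpl22 was 0.0947, 0.118 and 0.108 in Positive, against 0.147, 0.2 and 0.152 in Input. Every Positive ratio was below every Input ratio, at 0.646 times the Input value (log2 -0.63, exact two-sided permutation p = 0.1, adjusted 0.2). Rpl22 itself rose by 0.54 ± 0.19 (edgeR adjusted p = 0.036), and Rpl22l1 had 25.2 ± 6.88 CPM in Positive and 26.9 ± 8.27 CPM in Input (SD, n = 3 each). Rpl36al over Rpl36a and Rpl7l1 over Rpl7 differed by -0.17 and -0.07 on the log2 scale (exact permutation p = 0.3 and 0.7). Rpl7l1 and Rpl7 both rose, by 0.43 and 0.51 (edgeR adjusted p = 0.0173 and 0.0314). The call of Rpl7l1 was lost without Positive 1227, without Input 1222 and without Input 1227 (edgeR adjusted p = 0.0631, 0.0529 and 0.0753, over a range of 0.00597 to 0.202). Scaling to library size alone also lost it, without the block and with it (0.0978 and 0.0618). So did leaving out both 1222 libraries (0.0908 and 0.0834) or both 1227 libraries (0.202 and 0.092).

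Many ribosomal protein genes have near-identical pseudogene copies, and 62 of the 77 have at least 1 named copy in RefSeq, 23 for Rpl31 and 23 for Rps12. How reads that match several copies were counted is not given in the sources used here, so levels of these genes are uncertain to that extent. A named copy here is a RefSeq pseudogene whose symbol is that of the gene followed by -ps, with or without a number. Copies under other symbols were not counted. Rpl4, Rpl8, Rps3 and Rps20 have 0 copies named in this way, which does not show that they are free of copies. The 77 genes lie on 19 chromosomes, with 14 on chromosome 7. Per kilobase of annotated transcript the lowest values were 42.8 CPM in Positive and 37.8 CPM in Input for Rpl24, and 54.4 CPM in Positive and 32.8 CPM in Input for Rps20. The annotated transcript used for Rpl24 has 4920 bases, the longest of the family, and that used for Rps20 has 3706 bases. These lengths lower the values per kilobase of both genes.

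Genes that work with the ribosome were read beside its proteins. Of 19 other mRNAs with a TOP start or proteins bound to the ribosome, 7 (36.8%) were higher and 0 lower without the block, beside 26.1% and 29.4% of all genes. With it 14 (73.7%) were higher and 0 lower, beside 30.0% and 31.7%. The median log2 fold change was 0.41 without the block and 0.40 with it. Eef1a1, which delivers tRNA to the ribosome, had 4167 ± 706 CPM in Positive and 3318 ± 578 CPM in Input (SD, n = 3 each), and Eef2, the translocation factor, had 2304 ± 198 CPM in Positive and 1934 ± 209.5 CPM in Input. Eef1a1 missed the threshold without the block (edgeR adjusted p = 0.17) and passed with it (0.0244). Vim, the intermediate filament gene whose mRNA carries a TOP start, rose most, by 1.77 ± 0.19 (edgeR adjusted p = 7.61e-05), and it is also abundant in endothelial cells. Fau, which encodes a ribosomal protein fused to a ubiquitin-like protein, had a log2 fold change of 0.25 and also passed with the block and not without it (edgeR adjusted p = 0.0432 and 0.29). The blocked calls of Eef1a1 and Fau were lost on scaling to library size alone (0.19 and 0.337), without both 1222 libraries (0.339 and 0.33) and without both 1227 libraries (0.18 and 0.234). That of Fau was also lost with RLE size factors (0.0647), and Eef1a1 passed without the block when Input 1223 was left out (0.0495).

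Ribosome assembly genes moved in both directions. Of 44 measured, 8 (18.2%) were higher and 2 lower without the block, beside 26.1% and 29.4% of all genes. With it 10 (22.7%) were higher and 1 lower, beside 30.0% and 31.7%. The median log2 fold change was 0.21 without the block and 0.20 with it. Ubtf, the factor that keeps ribosomal RNA genes open to RNA polymerase I, had 256 ± 12.7 CPM in Positive and 123 ± 32.1 CPM in Input (SD, n = 3 each; log2 fold change 1.05, edgeR adjusted p = 0.00168). Ncl and Npm1, the abundant nucleolar proteins, had log2 fold changes of 0.26 and -0.10 and were not called in either fit. Mrto4 and Wdr12, both of large subunit assembly, fell by 0.85 and 0.72 on the log2 scale (edgeR adjusted p = 0.0171 and 0.0398), and Wdr12 missed the threshold with the block (0.0531). Wdr12 also missed it without any of the 6 libraries in turn, and Mrto4 without Input 1227 (edgeR adjusted p = 0.0714, over a range of 0.00575 to 0.129).

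A list of 24 regulators was also read, and not all of them are specific to ribosomal protein synthesis. Of these, 10 (41.7%) were higher and 1 lower without the block, beside 26.1% and 29.4% of all genes. With it 12 (50.0%) were higher and 1 lower, beside 30.0% and 31.7%. The median log2 fold change was 0.37 without the block and 0.39 with it. Nfe2l1, a transcription factor of the proteasome genes, had 542 ± 55.5 CPM in Positive and 234 ± 25.8 CPM in Input (SD, n = 3 each; log2 fold change 1.21, edgeR adjusted p = 0.000133). Tsc2, which restrains mTOR, did not pass in either fit, and Maf1, the repressor of RNA polymerase III, missed the threshold without the block (edgeR adjusted p = 0.0958) and passed with it (0.0339). Its blocked call was lost on scaling to library size alone (0.189), without both 1222 libraries (0.219) and without both 1227 libraries (0.201), and it passed without the block when Input 1223 was left out (0.023). Myc, which drives transcription of ribosomal protein genes in many cells, was the lower gene, at 4.76 ± 1.06 CPM in Positive and 18.4 ± 5.67 CPM in Input (SD, n = 3 each; log2 fold change -1.95 ± 0.32, edgeR adjusted p = 0.00087). Its paralog Mycn was higher, at 22.0 ± 3.85 CPM in Positive and 10.8 ± 2.31 CPM in Input (log2 fold change 1.06, edgeR adjusted p = 0.00541). Max was also higher, at 136 ± 7.85 CPM in Positive and 74.3 ± 9.4 CPM in Input (log2 fold change 0.88, edgeR adjusted p = 0.000673).

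The ribosome of mitochondria is built from a separate set of nuclear genes. Of its 72 measured genes, 3 (4.17%) were higher and 2 lower, without the block and with it, with a median log2 fold change of -0.03. Over all genes 26.1% were higher and 29.4% lower without the block, and 30.0% and 31.7% with it. The 3 most abundant, Mrpl17, Mrpl9 and Mrpl10, had log2 fold changes of 0.22, 0.10 and -0.09 and passed in neither fit. Mrps6 fell most, to 15.8 ± 1.87 CPM in Positive, against 36.7 ± 1.93 CPM in Input (SD, n = 3 each; log2 fold change -1.23, edgeR adjusted p = 0.00032), and Mrpl28 fell by 0.62 (edgeR adjusted p = 0.0229). Mrpl28 missed the threshold without Positive 1222, Positive 1227, Input 1223 or Input 1227, with adjusted p between 0.0582 and 0.0803. Positive exceeded Input in all 3 replicate numbers for 18 of the 72 and was below it in all 3 for 16, beside 40.8% and 38.7% of all genes. For the 76 cytosolic genes these counts were 71 and 0.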

How the data were processed

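RNA of 6 mouse brain libraries (Positive and Input, replicate numbers 1222, 1223 and 1227) was taken from the authors' table of 10989 genes. The deposited raw columns hold estimated counts (4.7% of values are whole numbers). Per the file headers, a gene needed raw values of 50 or more in all samples of a condition to be listed; all 77 ribosomal protein genes passed in both fractions. The deposited log2 values are normalised by the authors and were used only as an alternative. The submitters' processing notes name the build mm10 and the tool DESeq. Which aligner and counter made the counts, and whether strand was used, is not given in the sources used here.

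After rounding, the quasi-likelihood test of edgeR 4.0.16 (R 4.3.3) compared Positive with Input, with no term but fraction. Libraries were scaled by TMM, and filterByExpr (minimum count 10) removed 0 genes. The prior count was 2, and p-values were Benjamini-Hochberg adjusted over all genes with a threshold of 0.05. CPM are counts scaled by the TMM-adjusted library size. Standard errors come from the unshrunken coefficient and its F value. The TMM factors lay between 0.94 and 1.082. The biological coefficient of variation was 21.6%. DESeq2 1.42.0 and limma 3.58.1 were alternatives, beside other scalings and fits that leave libraries out. The scripts were tested on simulated data.

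Deviations of same-numbered libraries from their fraction means correlated across genes at 0.45 (1222), 0.23 (1223) and 0.30 (1227), each above 0.1, and the highest correlation with another number was 0.021. On this ground the numbers were treated as pairs, and fits with the number as a block are given beside the others. The series text calls the replicates biological, but the labels tie no number to an animal. The p-values therefore measure only how far these samples spread, which may be technical.

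The genes, their lists and the tests were chosen with earlier results of these data known. Genes were named by rule: Rpl10a, the stalk genes and Rpsa, paralog pairs, the 4 most abundant and the 4 highest and 4 lowest fold changes of each subunit, and from each related list the 3 most abundant and any called against its direction. Other genes were named after their values were seen. Some genes that the rule selects are counted but not reported here by name. Transcript lengths are those of GENCODE vM21 (principal transcript), and promoters and pseudogene names those of RefSeq (GRCm38.p6).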

Additional observations from a re-analysis of the deposited data

How the results depend on the processing

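Estimates were steadier than calls. Without the block, 18 of the 76 genes were called higher (12 large and 6 small subunit, beside 26.1% of all genes), and 0 were called lower under any of the alternatives tried. Scaling to library size only gave 4 (3 large, 1 small; 19.7% of all genes). The replicate block gave 60 (36 large, 24 small; 30.0% of all genes), the replicate block with library size only 35 (21 and 14; 22.9%), and the replicate block with RLE size factors 59 (34 and 25; 30.0%). RLE size factors gave 17 (26.0% of all genes), DESeq2 20 (27.1%) and limma on the deposited log2 values 17 (26.9%). Leaving out a library gave 4 to 40 genes (3 to 23 large, 1 to 17 small), beside 20.5% to 25.1% of all genes. Leaving out both libraries of a number gave 1 to 23 (0 to 16 large, 1 to 7 small), beside 15.8% to 23.4%. Doing so under the replicate block gave 30 to 63 (18 to 38 large, 12 to 25 small), beside 22.3% to 32.4%. Their medians ran from 0.26 to 0.56, and the 63 was without both 1223 libraries (32.4% of all genes); the 1 was without both 1227 libraries (15.8%). The block without both 1227 libraries gave 33 (20 and 13). The median log2 fold change of 0.39 was 0.23 with library size only, with or without the replicate block, and 0.46 with limma on the deposited log2 values. The Rpl10a log2 fold change was 1.54 to 1.78 under the settings that keep all libraries and 1.62 to 1.81 when libraries were left out. Its ratio to the other genes was 1.15 to 1.4 and the log2 difference of the family's share of counts 0.11 to 0.41 when libraries were left out. Some genes near 0 changed sign without being called in any of these settings. With library size only and with that scaling and the replicate block, the values were -0.08 and -0.10 for Rplp1, -0.13 and -0.13 for Rpl10, -0.04 and -0.04 for Rpl7a, -0.01 and -0.01 for Rps10, -0.04 and -0.05 for Rps9 and -0.05 and -0.06 for Mrpl9. Rpsa was 0.01 with limma on the deposited log2 values. When libraries were left out, the ranges were -0.04 to 0.22 for Rplp1, -0.20 to 0.00 for Rpsa, -0.09 to 0.12 for Rpl10 (-0.02 under the block without both 1223 libraries), -0.30 to 0.14 for Rpl22l1, 0.00 to 0.23 for Rpl7a, 0.00 to 0.25 for Rps10, -0.05 to 0.30 for Rps9, -0.01 to 0.16 for Mrpl9 and -0.15 to 0.00 for Mrpl10. Over 52 named genes and 20 alternatives, 860 values kept their direction and their side of the threshold, 66 gained and 83 lost a call, and 31 changed sign; the cause was not tested. The settings that combine the replicate block with another scaling, and those without both libraries of a number under the block, were chosen after seeing the data. The filter on low counts removed no gene, so leaving it out moved nothing. With 3 libraries a fraction, an exact permutation test over libraries cannot pass 0.05.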

Other observations

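The kinases that phosphorylate ribosomal protein S6 and their relatives moved in both directions. Of 8 measured, Rps6ka3 (RSK2) rose most, with 78.1 ± 15 CPM in Positive and 23.9 ± 3.94 CPM in Input (SD, n = 3 each; log2 fold change 1.71, edgeR adjusted p = 0.000107). Rps6kb1, the S6 kinase downstream of mTOR, had 54.0 ± 4.15 CPM in Positive and 27.6 ± 5.99 CPM in Input (log2 fold change 0.96, edgeR adjusted p = 0.00219), and Rps6ka4 rose by 0.81 (edgeR adjusted p = 0.013). Rps6ka5 fell by 0.99, Rps6ka1 by 0.75 and Rps6kc1 by 0.56 on the log2 scale (edgeR adjusted p = 0.000826, 0.0137 and 0.0227). Rps6kb2 (0.54) and Rps6ka2 (-0.14) did not pass. These genes were read after their values were seen.

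A row named Rps4y2, which the selection by symbol left out, had 50.8 ± 4.99 CPM in Positive and 32.6 ± 4.63 CPM in Input (SD, n = 3 each; log2 fold change 0.64, edgeR adjusted p = 0.009). No source used here says how its reads were told apart from those of its X-linked relative Rps4x. The pseudogene row Rplp2-ps1 had 7.79 ± 3.08 CPM in Positive and 6.05 ± 0.722 CPM in Input (SD, n = 3 each) and was not called (edgeR adjusted p = 0.481).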
